A study of Mus musculus with 9 samples.

Results

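The transcription factor p53 and its direct target genes were followed as a set of 10 genes out of the 54347 in the deposited table. The set holds *Trp53* (the p53 gene itself), its inhibitors *Mdm2* and *Mdm4*, the arrest and feedback targets *Cdkn1a*, *Ccng1* and *Zmat3*, and the death and survival-signaling targets *Bbc3*, *Pmaip1*, *Eda2r* and *Phlda3*. Members were found in the table by gene symbol, as p53 and established targets. All 10 passed the filter on low counts, *Eda2r* with only 4 to 31 counts per library.

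Poly-A RNA was sequenced from 3 mouse myeloid lines, with 3 libraries each. The progenitor lines Hox-WT and Hox-URE were made from lineage-negative c-Kit+ bone marrow cells with a Hoxb8-ER fusion, which holds cells in an immature state while estradiol is present. Hox-WT is wild type, Hox-URE (the preleukemic line) is UREd/d, that is, deleted for the upstream regulatory element of *Spi1* (the PU.1 gene), and URE-AML (labelled B22, AML blast-like) is a UREd/d line grown from the leukemic blasts of a diseased mouse. All 3 were cultured with IL-3, IL-6, SCF and β-estradiol. Each genotype and stage is 1 line, so genotype, stage and the history of a line cannot be told apart. Nothing in the labels says that separate cultures were used for the libraries of a line, so the p-values measure only the spread between these libraries, which may be technical.

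p53 is kept low in unstressed cells by Mdm2, a ubiquitin ligase that sends it for degradation, and by Mdm4, which masks its activation domain. DNA damage, oncogene activity through the Arf protein and ribosome stress release p53, which then switches on genes for cell cycle arrest, apoptosis and its own feedback, *Mdm2* among them. In hematopoietic cells this pathway limits the survival of damaged stem and progenitor cells, and its loss is a known step in some myeloid leukemias. Most of this control acts on the protein, which was not measured here.

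To show the kind of sequence through which p53 acts on such genes, the RefSeq promoter windows (GRCm38.p6, 250 bases before to 50 after a start site) were searched on both strands for the p53 full-site consensus, a pair of adjoining 10-base half-sites that make up 20 bases. The C and G in the core of each half-site had to match, so mismatches were allowed only at the other bases. The members had 12 windows, for 8 of the 10 genes. A full site with at most 3 mismatches was found in 4 of the 12, in 1 window for each of 4 genes, against 1.38% of 32851 windows of all genes. An exact half-site was found in 4 of the 12 (*Mdm2*, *Ccng1*, *Trp53* and *Cdkn1a*), against 8.36% of all windows. The matched 20 bases are in capitals below, with 15 bases on each side, 5′ to 3′ on the strand of the gene.
Cdkn1a, chr17:29090913-29090962, plus strand, 1 mismatch: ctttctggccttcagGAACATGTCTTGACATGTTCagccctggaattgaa
Ccng1, chr11:40755447-40755496, minus strand, 1 mismatch: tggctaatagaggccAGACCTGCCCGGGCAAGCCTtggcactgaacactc
Trp53, chr11:69580269-69580318, plus strand, 3 mismatches: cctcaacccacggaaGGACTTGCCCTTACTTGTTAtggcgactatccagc
Bbc3, chr7:16309471-16309520, plus strand, 3 mismatches: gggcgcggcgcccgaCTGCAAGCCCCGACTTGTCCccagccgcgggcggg
The *Cdkn1a* and *Ccng1* matches, which differ least from the consensus, began at positions -51 and -195 from the start site of their window. Those of *Trp53* and *Bbc3* began at -75 and -97. The window of the other *Cdkn1a* start site had 7 mismatches at best, and the windows of the other *Bbc3* start sites had 7 and 8. At most 1 mismatch was found in 0.067% of all windows. A match is a description of letters, and binding of p53 was not measured. The other members with a window may hold a site outside these windows.

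The libraries held 20331064 to 28588718 counts, and 3 counts, the limit that a count of 0 allows, stood at 0.104 to 0.153 CPM (library-scaled counts, with TMM factors). A gene was called different between lines at an adjusted p under 0.05 (edgeR) and a fold change over 1.5. *Spi1*, whose enhancer is deleted, averaged 103 ± 6.79 CPM in Hox-WT and 4.79 ± 2.02 CPM in URE-AML (SD, n = 3) and had 0 to 1 counts per library in the preleukemic line. The lines also differed in markers of cell type. Summed over 8 neutrophil markers, the libraries had 8520 to 16800 CPM in URE-AML, 4010 to 6860 CPM in Hox-WT and 134 to 144 CPM in Hox-URE, and 5 mast cell and basophil markers summed to 24.9 to 55.1, 373 to 732 and 1400 to 5650 CPM in the same order. The 5 monocyte markers summed to 14.2 to 23.5, 23.2 to 24.9 and 841 to 940 CPM in that order, and in Hox-URE nearly all of this was *Ccr2* (mean 885 CPM). Single markers did not all follow these sums. *Mpo*, most of the neutrophil sum in Hox-WT, averaged 5040 CPM there and 192 CPM in URE-AML, where *Elane* at 7310 CPM led, and the basophil gene *Mcpt8* averaged 32.5 CPM in URE-AML against 8.56 CPM in Hox-WT. *Ptprc*, a pan-leukocyte marker among the 5 progenitor markers, was at or under 3 counts in every library of both URE-deleted lines, and *Cd34* likewise in URE-AML. The part of these marker differences in the p53 gene set was not tested, and in bulk RNA fewer cells of a type and less RNA per cell cannot be told apart.

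**Figure D1:**
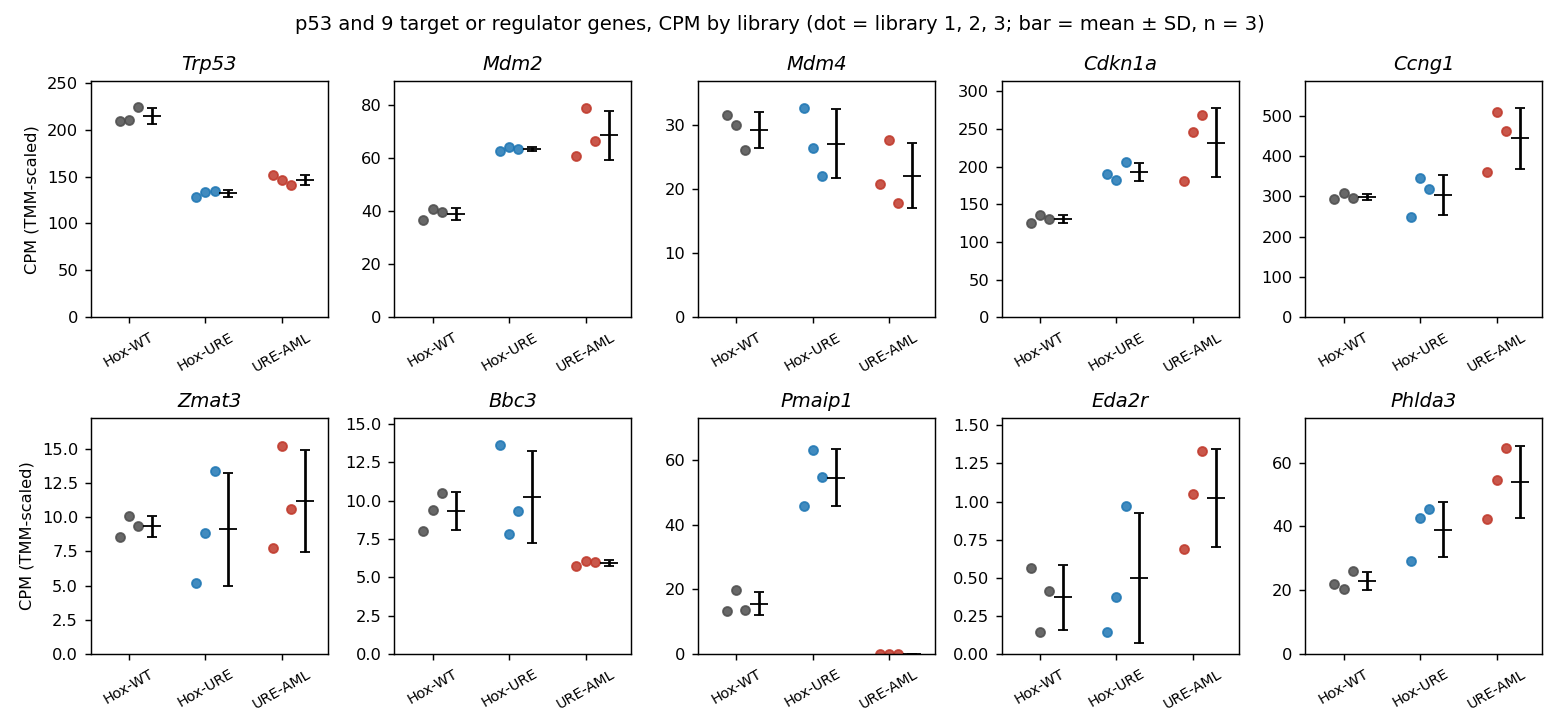
CPM (linear axes from 0) of p53 and its 9 inhibitor and target genes in each library of Hox-WT, Hox-URE and URE-AML, with the mean ± SD of the 3 libraries beside the dots. *Trp53* is highest in Hox-WT (209 to 224 CPM), *Mdm2* and *Cdkn1a* are lowest there, and *Pmaip1* is at 0 in each URE-AML library.

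*Trp53* was lower in both URE-deleted lines than in Hox-WT. *Trp53* (ENSMUSG00000059552, chromosome 11, 69580359 to 69591873 of GRCm38) had 209, 210 and 224 CPM in the Hox-WT libraries, 128, 133 and 135 CPM in Hox-URE and 152, 146 and 141 CPM in URE-AML. The 3 lines did not overlap, and Hox-URE was the lowest. Hox-URE versus Hox-WT gave a log2 fold change of -0.70 ± 0.07 (SE, adjusted p = 3.16e-05), a called difference. URE-AML versus Hox-WT gave -0.55 ± 0.07 (SE, adjusted p = 0.000119), which passed the p threshold but stayed under a 1.5-fold change, and URE-AML versus Hox-URE gave 0.15 ± 0.07 (SE, adjusted p = 0.103), so the last 2 lines were not called different although their libraries did not overlap. The transcript was abundant in every line, at 32.6 to 53 CPM per kb of merged exon on average. Counts per gene do not show whether a transcript carries a mutation. Its processed pseudogene *Trp53-ps* took 0 to 2 counts per library.

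Of the 2 inhibitors, *Mdm2* was higher in both URE-deleted lines and *Mdm4* was not called in any comparison. *Mdm2*, which is also a target of p53, had 36.6, 40.9 and 39.7 CPM in Hox-WT, 63, 64.4 and 63.7 CPM in Hox-URE and 60.8, 79 and 66.5 CPM in URE-AML. Every library of the URE-deleted lines lay above every Hox-WT library, and the URE-deleted lines overlapped each other. Its log2 fold change was 0.70 ± 0.11 (SE, adjusted p = 0.00035) for Hox-URE and 0.81 ± 0.11 (SE, adjusted p = 9.83e-05) for URE-AML versus Hox-WT, while that between the URE-deleted lines was 0.11 ± 0.11 (SE, adjusted p = 0.399). *Mdm4* had 31.6, 30 and 26.2 CPM in Hox-WT, 32.8, 26.5 and 22.1 CPM in Hox-URE and 20.8, 27.8 and 17.9 CPM in URE-AML, overlapping in each pair of lines. Its log2 fold change was -0.11 ± 0.19 (SE, adjusted p = 0.657) for Hox-URE and -0.40 ± 0.19 (SE, adjusted p = 0.089) for URE-AML versus Hox-WT. Without URE-AML library 2, the highest of that line, the latter was -0.60 with an adjusted p of 0.0207 and was called.

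Among the arrest and feedback targets, only *Cdkn1a* was called, and only in URE-AML versus Hox-WT. *Cdkn1a*, which encodes the cyclin-dependent kinase inhibitor p21, had 125, 136 and 131 CPM in Hox-WT, 191, 183 and 206 CPM in Hox-URE and 181, 246 and 269 CPM in URE-AML. All libraries of both URE-deleted lines lay above Hox-WT, and URE-AML library 1 lay below the Hox-URE libraries. URE-AML versus Hox-WT gave a log2 fold change of 0.83 ± 0.13 (SE, adjusted p = 0.000377). Hox-URE versus Hox-WT gave 0.57 ± 0.13 (SE, adjusted p = 0.00478), just short of a 1.5-fold change, and was called without Hox-WT library 2 or without Hox-URE library 2, at 0.60 in each case. *AC167363.2*, which overlaps its exons on the opposite strand, took at most 5 counts in any library.

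*Ccng1* and *Zmat3* were not called in any comparison. *Ccng1*, the gene of cyclin G1, which acts on Mdm2 in a feedback loop, had 294, 308 and 295 CPM in Hox-WT, 249, 345 and 318 CPM in Hox-URE and 361, 508 and 462 CPM in URE-AML. Each URE-AML library was above all libraries of the other lines, which overlapped. Its log2 fold change was 0.02 ± 0.15 (SE, adjusted p = 0.917) for Hox-URE and 0.57 ± 0.15 (SE, adjusted p = 0.00713) for URE-AML versus Hox-WT, and 0.55 ± 0.15 (SE, adjusted p = 0.00886) between the URE-deleted lines. The latter 2 were under a 1.5-fold change, and without URE-AML library 1 both were called, at 0.70 (adjusted p = 0.00214) and 0.68 (adjusted p = 0.00265). *Ccng1* was also called against Hox-WT without Hox-WT library 2, at 0.59, and against Hox-URE without Hox-URE library 2, at 0.65. *Zmat3*, which encodes an RNA-binding zinc finger protein, had 8.55, 10.1 and 9.34 CPM in Hox-WT, 5.17, 8.83 and 13.4 CPM in Hox-URE and 7.79, 15.2 and 10.6 CPM in URE-AML. The lines overlapped, and none of its 3 differences passed the test (adjusted p of 0.463 to 0.937).

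The death targets went different ways, and *Pmaip1* was the most divided gene of the set. *Pmaip1*, which encodes the BH3-only protein Noxa, had 13.2, 19.7 and 13.7 CPM in Hox-WT, 45.6, 63.1 and 54.6 CPM in Hox-URE and 0 CPM in each URE-AML library. In counts these were 353 to 551 per Hox-WT library, 1069 to 1523 per Hox-URE library and 0 in URE-AML, where a count of 0 allows up to 0.121 to 0.143 CPM. Its log2 fold change was 1.81 ± 0.19 (SE, adjusted p = 0.00011) for Hox-URE versus Hox-WT. Set against that floor, the level of *Pmaip1* in URE-AML was lower than that of Hox-WT by at least 119-fold (adjusted p = 4.49e-07) and lower than that of Hox-URE by at least 416-fold (adjusted p = 1.32e-07). Reads were thus found in all 6 libraries of the Hox lines and in none of the 3 of URE-AML.

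*Bbc3*, which encodes the BH3-only protein Puma, was lower in URE-AML, although far less so than *Pmaip1*. It had 8.02, 9.36 and 10.5 CPM in Hox-WT, 13.6, 7.83 and 9.3 CPM in Hox-URE and 5.74, 6.09 and 6.01 CPM in URE-AML. The URE-AML libraries were the lowest 3 of the 9. The log2 fold change of URE-AML was -0.64 ± 0.21 (SE, adjusted p = 0.0233) against Hox-WT and -0.79 ± 0.21 (SE, adjusted p = 0.00875) against Hox-URE, whereas Hox-URE versus Hox-WT gave 0.14 ± 0.21 (SE, adjusted p = 0.589). The call against Hox-WT was lost without any one of Hox-WT library 2 (adjusted p = 0.0551), Hox-WT library 3 (adjusted p = 0.0761) or URE-AML libraries 1, 2 and 3 (adjusted p of 0.0624, 0.0533 and 0.0547). The call against Hox-URE was lost without Hox-URE library 1, the highest of all, where the log2 fold change was -0.53 (adjusted p = 0.0224).

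*Phlda3* was higher in both URE-deleted lines. It encodes a small pleckstrin-homology protein that restrains Akt signaling, and had 22, 20.4 and 25.9 CPM in Hox-WT, 29.1, 42.5 and 45.4 CPM in Hox-URE and 42.3, 54.5 and 64.7 CPM in URE-AML. Neither URE-deleted line overlapped Hox-WT, and they overlapped each other. The log2 fold change was 0.78 ± 0.20 (SE, adjusted p = 0.00767) for Hox-URE and 1.24 ± 0.20 (SE, adjusted p = 0.000373) for URE-AML versus Hox-WT. Between the URE-deleted lines it was 0.47 ± 0.20 (SE, adjusted p = 0.064), and it was called without Hox-URE library 3 (0.59, adjusted p = 0.0423) or without URE-AML library 1 (0.62, adjusted p = 0.0248). *Eda2r*, a receptor of the TNF receptor family, was near the detection limit at 0.562, 0.143 and 0.415 CPM in Hox-WT, 0.146, 0.373 and 0.971 CPM in Hox-URE and 0.687, 1.05 and 1.33 CPM in URE-AML. Its difference between URE-AML and Hox-WT was 1.44 ± 0.65 (log2, SE, adjusted p = 0.0823), with no overlap between the libraries. That comparison was called without Hox-URE library 1 (adjusted p = 0.0484) and in a fit of its 6 libraries alone (adjusted p = 0.0302). URE-AML versus Hox-URE gave 1.08 ± 0.65 (log2, SE, adjusted p = 0.179), with overlapping libraries, and was not called. Of 18 alternatives, 1 called it, without Hox-URE library 3 (1.97, adjusted p = 0.0329).

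**Figure D2:**
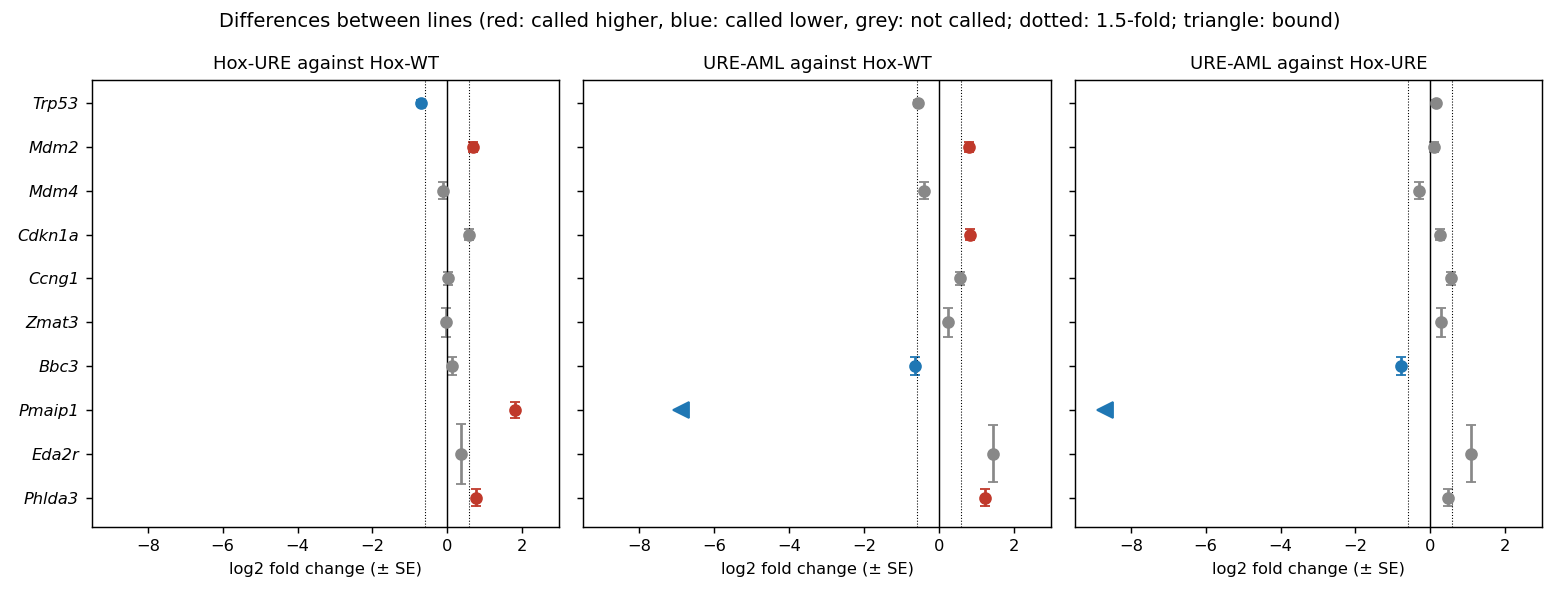
Log2 fold change ± SE (edgeR) of the 10 genes for each pair of lines, with called genes in red (higher) or blue (lower), uncalled genes in grey, dotted lines at a 1.5-fold change and triangles at the bound of *Pmaip1* (119-fold lower than Hox-WT, 416-fold lower than Hox-URE). *Mdm2* and *Phlda3* are called higher in both URE-deleted lines against Hox-WT, and no gene is called higher in URE-AML versus Hox-URE.

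Counted over the set, Hox-URE versus Hox-WT compares the UREd/d progenitor line with the wild-type one, and these lines also differed in markers of cell type. There 3 of the 10 genes were called higher (*Mdm2*, *Pmaip1* and *Phlda3*), against 21.3% of all genes tested, and 1 was called lower (*Trp53*), against 15.9%. The libraries of both lines did not overlap for 5 of the 10, against 60.3% of all genes. The median log2 fold change of the 10 was 0.25, and that of all tested genes was 0.00.

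URE-AML versus Hox-WT compares the leukemic line with wild-type progenitors. Here 3 genes were called higher (*Mdm2*, *Cdkn1a* and *Phlda3*), against 23.0% of all genes, and 2 were called lower (*Pmaip1* and *Bbc3*), against 20.2%. The libraries did not overlap for 8 of the 10, against 67.6% of all genes, and the median log2 fold change was 0.41. In URE-AML versus Hox-URE, which compares the leukemic with the preleukemic UREd/d line, edgeR called 0 genes higher, against 20.3% of all genes, while 2 were higher at an unadjusted p under 0.05 (*Ccng1* and *Phlda3*) and DESeq2 also called 0, and *Pmaip1* and *Bbc3* were called lower, against 22.4%. With counts scaled by library size only, the split of the set there was 1 higher (*Ccng1*) and 2 lower. That scaling moved the median of all genes in this comparison by 0.109 (log2). The libraries did not overlap for 4 of the 10 genes, against 62.8% of all, and the median was 0.21. The comparisons share libraries pairwise and are not independent.

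Compared per length of merged exon, the target genes differed widely in level within each line. *Ccng1* had the highest mean in each line, at 126 CPM per kb in URE-AML, 86.6 in Hox-URE and 85.2 in Hox-WT. *Cdkn1a* had 65.4, 54.4 and 36.7 CPM per kb in the same order, *Phlda3* 34.5, 25.0 and 14.6, and *Mdm2* 13.5, 12.5 and 7.69. *Bbc3* stayed at 2.8 to 4.82, *Mdm4* at 1.5 to 1.98, *Zmat3* at 0.8 to 0.979 and *Eda2r* at 0.0634 to 0.173 CPM per kb. The lowest members in each Hox line were thus *Zmat3* and *Eda2r*. In URE-AML *Pmaip1*, at 0, was below both.

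**Figure D3:**
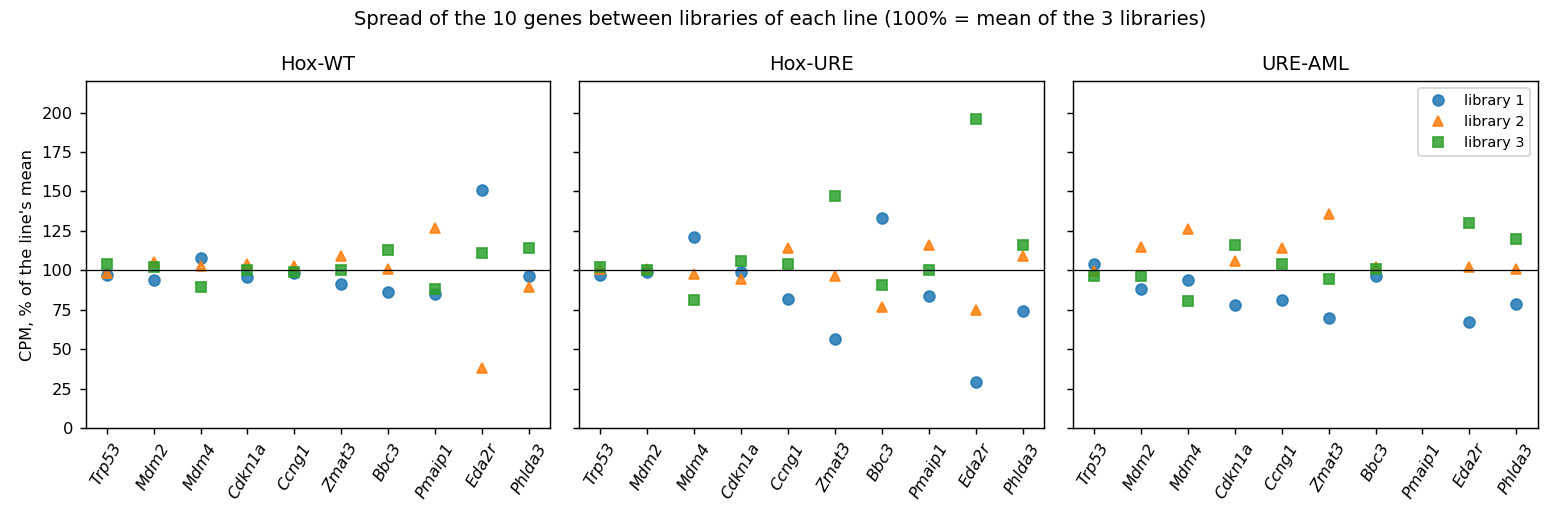
CPM of each of the 10 genes as a percentage of the mean of the 3 libraries of its line, by library number, with 1 panel per line (*Pmaip1* has no point in URE-AML, where it is at 0). Circles, for library 1, are the lowest for 7 genes in each line.

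Libraries of a line also differed among themselves over this set. Library 1 held the lowest CPM of its line for 7 of 10 genes in Hox-WT, 7 of 10 in Hox-URE and 7 of the 9 detected in URE-AML, against 37.5%, 42.3% and 34.8% of all tested genes detected in the line. In URE-AML these 7 were *Mdm2*, *Cdkn1a*, *Ccng1*, *Zmat3*, *Bbc3*, *Eda2r* and *Phlda3*. *Eda2r*, the member with the fewest counts, spread the most in both Hox lines. What the libraries numbered 1 share was not tested, and nothing in the labels ties equal numbers together.

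The genes most like *Trp53* in pattern over the 9 libraries, by root mean square difference of centred log2(CPM + 0.5) among 11684 protein-coding genes, were *Bub1* (0.0548), *Crlf3* (0.0633) and *Thumpd1* (0.0645). *Bub1*, a kinase of the spindle checkpoint, averaged 82.9 CPM in Hox-WT against 52.8 and 56.4 CPM in Hox-URE and URE-AML. The genes most like *Cdkn1a* were *Ogfod2* (0.0724), *Zscan29* (0.0886) and *Zfyve21* (0.118). *Ogfod2* averaged 17.8, 25.6 and 31.6 CPM. None of these 6 is a member of the set.

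A wider list of 44 further p53 targets, 43 of them tested, was then read in the same way. In Hox-URE versus Hox-WT 14 were called higher (32.6%, against 21.3% of all genes) and 3 lower (6.98%, against 15.9%), with a median of 0.19, and by library size only the split was 11 higher and 5 lower. By role, 4 of 6 arrest genes, 4 of 7 DNA repair genes, 3 of 9 metabolic and redox genes, 2 of 10 apoptosis genes, 0 of 2 feedback genes and 1 of 9 other genes were called higher, and 1 gene each of the arrest, apoptosis and metabolic groups was called lower. The count lower rose to 5 without Hox-WT library 3 or Hox-URE library 2. In URE-AML versus Hox-WT 11 were higher (25.6%, against 23.0% of all genes) and 7 lower (16.3%, against 20.2%), with a median of 0.04. In URE-AML versus Hox-URE 10 were higher (23.3%, against 20.3%) and 14 lower (32.6%, against 22.4%), with a median of -0.10. *Bax*, a pore-forming death effector, was at 115 ± 6.11, 105 ± 3.7 and 104 ± 10.9 CPM (SD, n = 3 per line) and was not called in any comparison. *Ppm1d*, a phosphatase that turns p53 off, had 32.1 ± 0.633, 24.0 ± 1.03 and 23.4 ± 0.332 CPM (SD, n = 3), with log2 fold changes of -0.42 ± 0.09 (SE, adjusted p = 0.00232) and -0.46 ± 0.09 (SE, adjusted p = 0.00115) against Hox-WT, both under a 1.5-fold change.

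The targets with the largest called differences mostly set one line apart. *Perp*, a membrane protein of cell junctions linked to apoptosis, had 656 ± 108 CPM in Hox-URE, 18.1 ± 3.31 in Hox-WT and 33.9 ± 5.41 in URE-AML (SD, n = 3), a log2 fold change of 5.18 ± 0.20 (SE, adjusted p = 4.22e-08) for Hox-URE versus Hox-WT. *Gdf15*, a secreted stress factor, was likewise highest in Hox-URE, at 32.9 ± 8.31 CPM against 1.91 ± 0.321 in Hox-WT and 3.87 ± 0.975 in URE-AML (SD, n = 3). *Plk2*, a polo-like kinase, had 60 to 109 counts in each Hox-URE library, 0 to 1 in Hox-WT and 0 to 2 in URE-AML. Scaled for library depth, its summed counts in Hox-URE were 135 times those in Hox-WT (95% interval 36.9 to 1120, counting error only).

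Several targets were highest in URE-AML. *Dram1*, which encodes a lysosomal regulator of autophagy, had 22.6 ± 4.28 CPM there, 0.66 ± 0.183 in Hox-URE and 0.0711 ± 0.0693 in Hox-WT (SD, n = 3), with log2 fold changes of 8.20 ± 0.44 (SE, adjusted p = 1.37e-07) against Hox-WT and 5.09 ± 0.34 against Hox-URE. Only 0 to 4 counts per Hox-WT library lie behind the first, which was 9.07 without Hox-WT library 3. The death receptor gene *Fas* had 11.9 ± 0.0561 CPM in URE-AML, 1.39 ± 0.797 in Hox-URE and 0.726 ± 0.299 in Hox-WT (SD, n = 3). For *Fas*, Hox-URE versus Hox-WT gave 0.91 ± 0.48 (log2, SE, adjusted p = 0.134) and was not called. Leaving out one library gave 0.54 to 1.34, and it was called without Hox-URE library 1, at 1.34 (adjusted p = 0.00505). *Tnfrsf10b*, a receptor for TRAIL, had 8.86 ± 2.4 CPM in URE-AML, 1.52 ± 0.114 in Hox-WT and 1 to 4 counts per library in Hox-URE. The antiproliferative gene *Btg2* was higher than in Hox-WT in both UREd/d lines, by 4.90 ± 0.39 in URE-AML and 3.47 ± 0.39 in Hox-URE (log2, SE), on 3 to 4 counts per Hox-WT library.

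Other targets were lower in one or both UREd/d lines than in Hox-WT. *Sfn*, the 14-3-3 sigma gene of the arrest group, had 0.981 ± 0.256 CPM in URE-AML, 18.5 ± 2.88 in Hox-URE and 9.85 ± 0.433 in Hox-WT (SD, n = 3), and the tetraspanin gene *Cd82* had 4.92 ± 1.25, 33.4 ± 2.94 and 25.3 ± 1.74. *Gpx1*, which encodes a glutathione peroxidase, was lower in both UREd/d lines, by a log2 fold change of -1.28 ± 0.17 for Hox-URE and -1.45 ± 0.17 for URE-AML versus Hox-WT (SE). *Psrc1*, a spindle gene, was called lower only in Hox-URE versus Hox-WT, at -1.70 ± 0.38 (SE, adjusted p = 0.00386), and had a log2 fold change of 1.46 ± 0.38 (SE, adjusted p = 0.00775) for URE-AML versus Hox-URE.

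**Figure D4:**
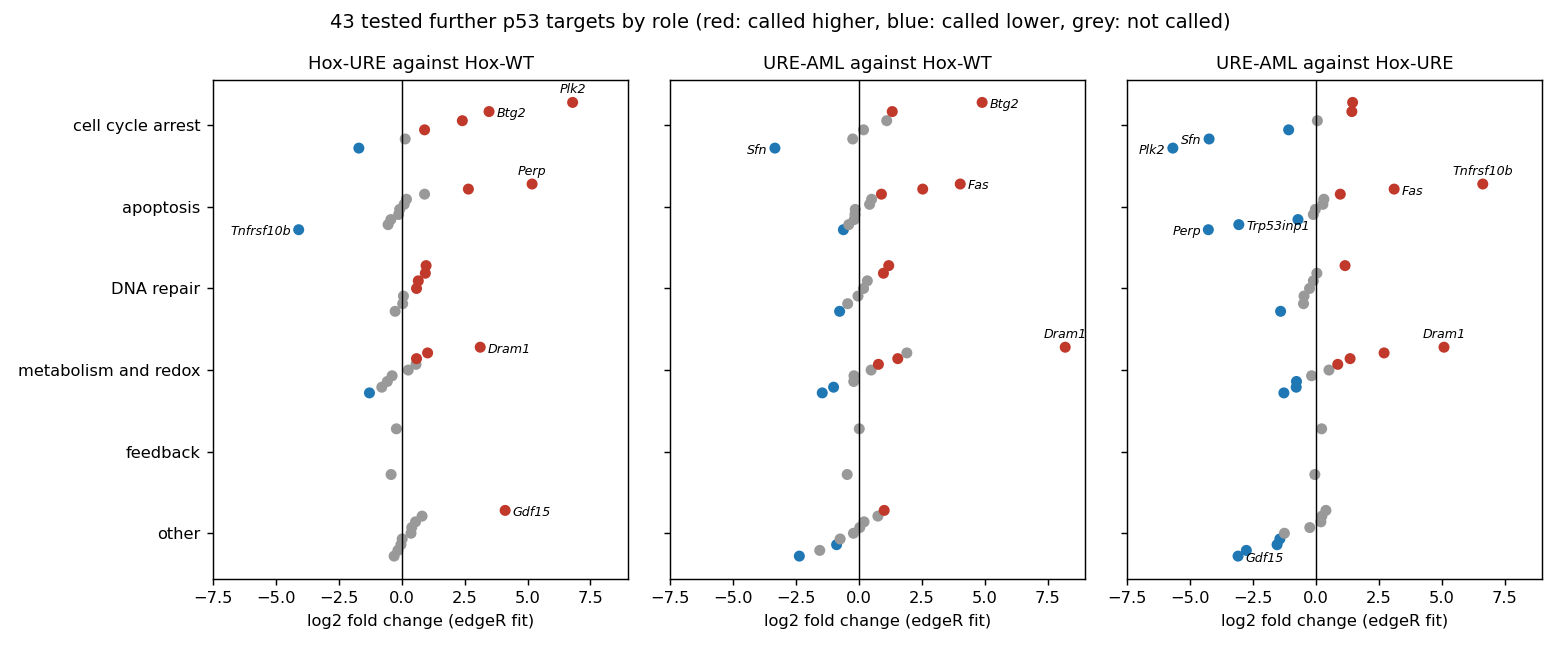
Log2 fold change (edgeR) of the 43 tested further p53 targets by role for each pair of lines, with called genes in red (higher) or blue (lower) and names at called genes beyond a log2 fold change of 3. Called genes lie on both sides of 0 in each panel, with 14 higher and 3 lower in Hox-URE versus Hox-WT.

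Upstream of p53, the largest differences were at the locus of Arf, the nucleolar protein that blocks Mdm2. *Cdkn2a*, which encodes Arf and, in another frame, the cyclin-dependent kinase inhibitor p16Ink4a (the table holds their sum), had 230 to 345 counts per Hox-WT library, 276 to 498 per Hox-URE library and 11 to 14 per URE-AML library. In CPM these were 10.8 ± 1.86, 18.0 ± 7.71 and 0.539 ± 0.0831 (SD, n = 3). The log2 fold change of URE-AML was -4.31 ± 0.38 (SE, adjusted p = 5.59e-06) versus Hox-WT and -5.05 ± 0.39 (SE, adjusted p = 2.1e-06) versus Hox-URE. Hox-URE versus Hox-WT gave 0.74 ± 0.29 (SE, adjusted p = 0.0536), and was called without Hox-URE library 1, at 1.02 (adjusted p = 0.0015). It was also called by DESeq2 (adjusted p = 0.0415), without a low-count filter (0.0237), with a minimum of 10 counts in every library (0.0487) and with the replicate number as a block (0.012).

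The neighbouring gene *Mtap*, a purine salvage enzyme, differed by more, with 21 to 38 counts per URE-AML library against 3266 to 3568 in Hox-WT and 1898 to 3196 in Hox-URE, a log2 fold change of -6.61 ± 0.18 against Hox-WT (SE, adjusted p = 1.91e-09). *Cdkn2b*, the p15Ink4b gene, had 196 to 227 counts per library in Hox-URE alone, and 5 to 7 in Hox-WT and 2 to 8 in URE-AML. Its log2 fold change was 5.40 ± 0.42 (SE) for Hox-URE versus Hox-WT and -5.71 ± 0.44 (SE) for URE-AML versus Hox-URE, both called, and the latter was -6.65 without URE-AML library 3. Copy number was not measured, and the few counts left in URE-AML were not traced to a position.

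**Figure D5:**
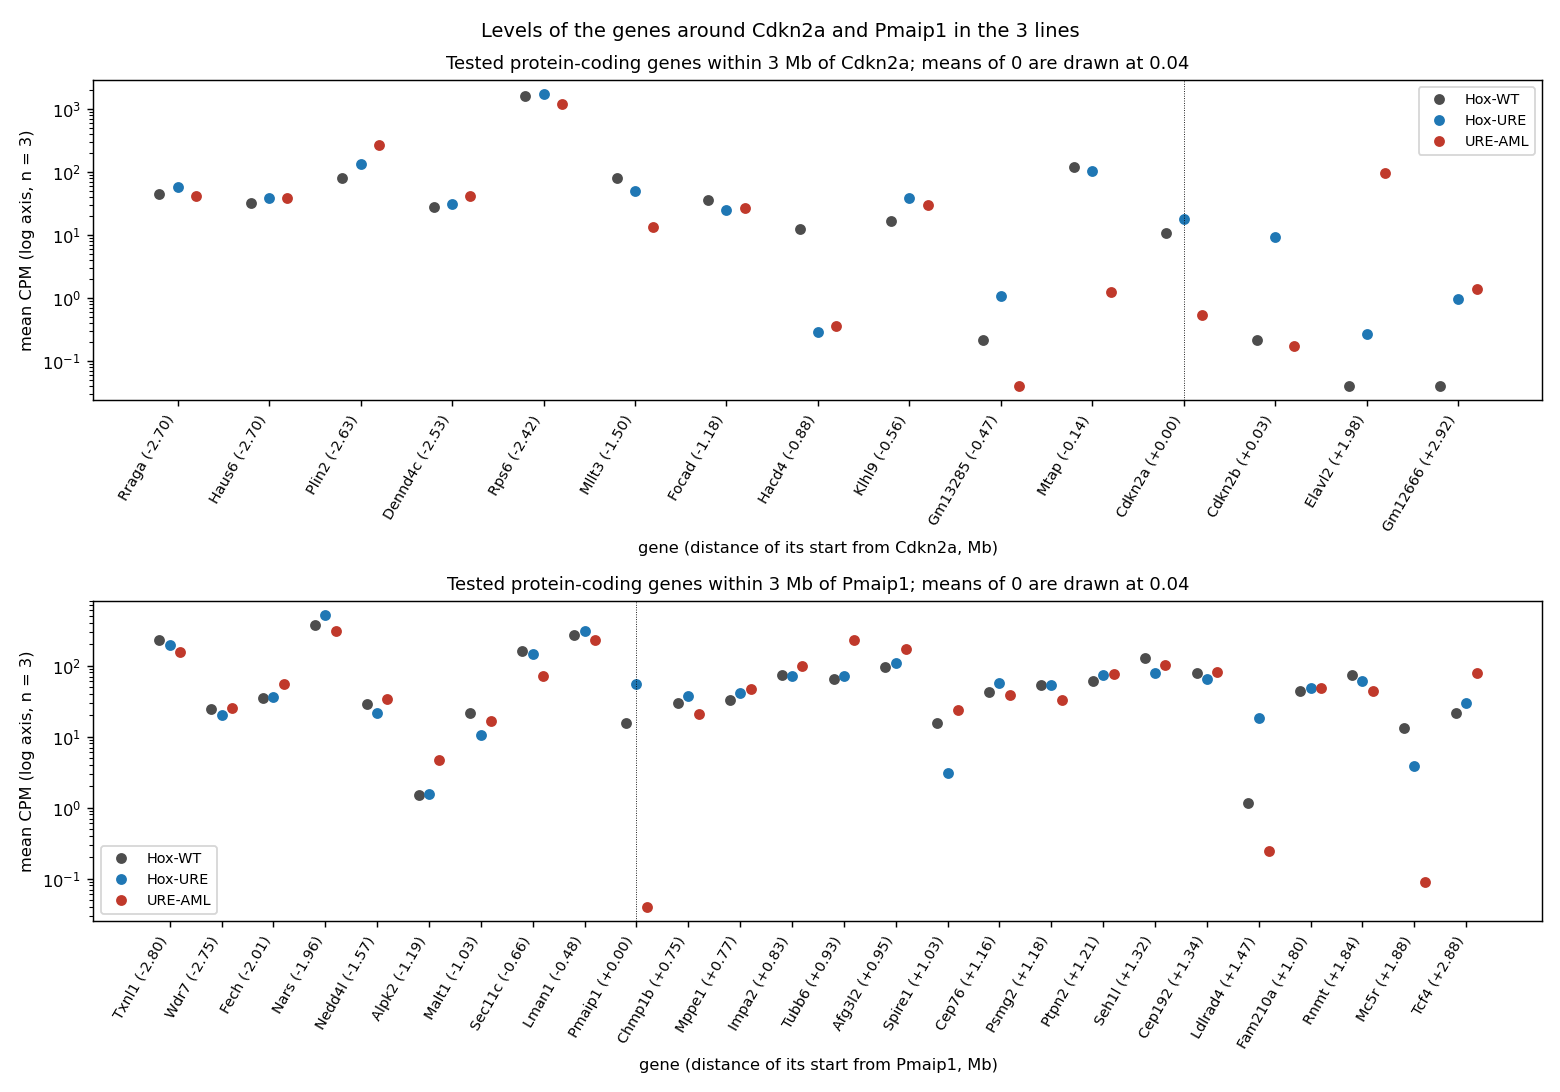
Mean CPM (log axis, n = 3 libraries per line) of tested protein-coding genes within 3 Mb of *Cdkn2a* and *Pmaip1*, ordered by distance of their start in Mb, with means of 0 drawn at 0.04. In URE-AML *Mtap* and *Cdkn2a* are at 1.26 and 0.539 CPM while *Focad*, *Hacd4* and *Klhl9* are at 26.9, 0.354 and 30.6 CPM. *Pmaip1* is at 0 in URE-AML and is the only tested gene drawn between *Lman1* and *Chmp1b*.

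The genes around these loci were chosen after their values were seen. Next to *Mtap*, at 0.47 Mb from *Cdkn2a*, *Gm13285* had 4 to 9 counts per Hox-WT library, 15 to 39 per Hox-URE library and 0 in each URE-AML library. Beyond it at 0.56 Mb, *Klhl9* had a mean of 30.6 CPM in URE-AML against 16.8 in Hox-WT. *Hacd4*, at 0.88 Mb, had 0.354 CPM in URE-AML and 0.289 in Hox-URE against 12.7 in Hox-WT. On the other side the nearest tested protein-coding gene after *Cdkn2b* was *Elavl2*, with 95.5 CPM in URE-AML and 0 in Hox-WT. Around *Pmaip1*, *Lman1* had 226 CPM in URE-AML and 271 in Hox-WT, and *Chmp1b* had 20.7 and 29.6 CPM.

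Of 25 genes that act upstream of p53, belong to its family or lie at the Arf locus, 23 were tested. In Hox-URE versus Hox-WT 1 was called higher (*Cdkn2b*; 4.35%, against 21.3% of all genes) and 4 lower (17.4%, against 15.9%), with a median of -0.25. In URE-AML versus Hox-WT 1 was higher (*Kmt5a*, a methyltransferase that acts on p53, 0.69 ± 0.11, SE; 4.35%, against 23.0%) and 10 lower (43.5%, against 20.2%), with a median of -0.35. In URE-AML versus Hox-URE 4 were higher (17.4%, against 20.3%) and 7 lower (30.4%, against 22.4%), with a median of -0.29. *Bmi1*, a polycomb repressor of the Arf locus, was lower in both UREd/d lines than in Hox-WT, by -2.03 ± 0.13 in Hox-URE and -0.91 ± 0.13 in URE-AML (log2, SE). The deacetylase gene *Sirt1* was lower in Hox-URE, by -1.70 ± 0.12 (log2, SE). *Npm1*, which holds Arf in the nucleolus, was lower in both, by -1.11 ± 0.12 and -1.08 ± 0.12.

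Of 6 kinases that act on p53, 4 were called lower (66.7%, against 20.2% of all genes) and 0 higher (against 23.0%) in URE-AML versus Hox-WT. In Hox-URE versus Hox-WT edgeR called 0 lower (against 15.9%) and 0 higher (against 21.3%), with a median of -0.07, although 3 had an unadjusted p under 0.05. In URE-AML versus Hox-URE 2 were lower (33.3%, against 22.4%) and 0 higher (against 20.3%). *Atm* was lower than in Hox-WT by -0.64 ± 0.12 (log2, SE, adjusted p = 0.000812) and *Chek2* by -0.63 ± 0.13 (log2, SE, adjusted p = 0.00159). The call of *Atm* was lost without URE-AML library 3 (-0.56) and that of *Chek2* without Hox-WT library 3 (-0.58), where each fell under a 1.5-fold change. *Cbx7*, another polycomb gene, was lower by -1.99 ± 0.44 (log2, SE). *Crebbp*, a p53 acetyltransferase, was called higher for URE-AML versus Hox-URE at 0.81 ± 0.28 (log2, SE, adjusted p = 0.0288), a call lost without Hox-URE library 2 or 3 or URE-AML library 1 or 3 (adjusted p of 0.0774 to 0.0974). *Usp7*, which stabilizes Mdm2, was not called in any comparison, although Hox-URE versus Hox-WT was called without Hox-URE library 1, at -0.59, and by library size only, at -0.61.

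The p53 family members *Trp63* and *Trp73* were not tested. *Trp73* had 0 counts in every library. *Trp63* had 0 counts in every Hox-WT and Hox-URE library and 4 to 10 per library in URE-AML, at least 3.04-fold higher than in Hox-WT and at least 2.54-fold higher than in Hox-URE.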

How the data were processed

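The 10 genes and the other gene lists were chosen with earlier results of these data known. Per the labels, poly-A RNA was made into stranded libraries, and the authors used Salmon on a mouse transcriptome (GRCm38) and tximport to obtain gene-level values. The deposited values are estimated counts, 1 whole number for each gene and library, without scaling for depth. The Salmon version, the transcriptome release and any scaling for transcript length are not given in the sources used here.

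Counts of all 9 libraries were fitted in one edgeR 4.0.16 quasi-likelihood model (R 4.3.3) with line as the only factor, TMM factors (0.938 to 1.04) and filterByExpr with a minimum count of 10, which kept 13082 genes and set aside 0.0499% of counts. Two-sided p-values were adjusted by Benjamini-Hochberg over all genes tested. The standard error of a log2 fold change was its size over the square root of F, with a common coefficient of biological variation of 0.173 over genes. No libraries of a line were alike within sampling noise (chi-square per degree of freedom of 18.1 to 99.8). A fold against a line at 0 is a bound from 3 counts per library; intervals and floors cover counting error only. Loci and exon lengths came from GENCODE M21 on GRCm38, and figures were drawn with matplotlib 3.10.9.

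Named were the 10 genes, 11 regulators and targets fixed by name, the 3 called higher and lower further targets and regulators with the largest change in each comparison, the 2 largest cell cycle genes called in each direction, and the 3 genes nearest in pattern to *Trp53* and *Cdkn1a*. The neighbours of *Cdkn2a* and *Pmaip1* were added after seeing the counts. On data simulated for Hox-URE against Hox-WT (12773 genes), the fit called 66 of 100 genes changed 2-fold, 87 of 100 changed 4-fold and 11 unchanged genes. The simulation changed 200 genes, in Hox-URE only and equally up and down, whereas 2789 higher and 2084 lower were called in the data. It thus does not show how the fit performs with that many changes.

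Alternatives were other scalings (DESeq2-style, upper-quartile, library size only), DESeq2 1.42.0, glmTreat at 1.5-fold, dropping the fold threshold or the filter, a stricter filter (10 counts in all libraries), a fit of the 6 libraries compared, a replicate block, and leaving out each library.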

Additional observations from a re-analysis of the deposited data

How the results depend on the processing

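The counts of called members and further targets stayed within 1.5 times the reported count in 207 of 228 recomputations. For members in Hox-URE versus Hox-WT, a test against a 1.5-fold change (glmTreat) called 1 higher in place of 3 and 0 lower in place of 1. In URE-AML versus Hox-WT, glmTreat and a minimum of 10 counts in every library, which removes *Pmaip1* by construction, called 1 lower in place of 2, and leaving out one library gave 1 to 2. In URE-AML versus Hox-URE those settings also called 1 lower in place of 2 (leave-one-out 1 to 2), and library size only and no fold change threshold called 1 higher in place of 0 (leave-one-out 0 to 2, with 1 without Hox-URE library 2 and 2 without Hox-URE library 3 or URE-AML library 1). Further targets called lower in Hox-URE versus Hox-WT were 5 by library size only and 9 without a fold threshold, against 3 (leave-one-out 3 to 5), and those higher in URE-AML versus Hox-URE were 6 with 10 counts in every library, against 10. Calls of single genes lost with glmTreat (adjusted p) were *Trp53* (0.0794), *Mdm2* (0.156), *Phlda3* (0.198), *Aurka* (0.0519) and *Bub1* (0.252) in Hox-URE versus Hox-WT; *Bbc3* (0.404), *Atm* (0.304), *Chek2* (0.357), *Gdf15* (0.0634), *Kmt5a* (0.169) and *Mki67* (0.102) in URE-AML versus Hox-WT; and *Bbc3* (0.173), *Crebbp* (0.225) and *Mki67* (0.135) in URE-AML versus Hox-URE. The cause was not tested except where the construction shows it.

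No difference that changed sign was called, before or after the change (log2; ranges are over leaving out one library). In Hox-URE versus Hox-WT these were *Ccng1* (upper-quartile -0.01, library size only -0.09, range -0.09 to 0.14), *Bbc3* (-0.13 to 0.29), *Eda2r* (-0.54 to 0.81), *Mdm4* (-0.28 to 0.01), *Zmat3* (-0.43 to 0.24) and *Mki67* (library size only -0.07, range -0.15 to 0.29). In URE-AML versus Hox-WT they were *Zmat3* (-0.02 to 0.46), *Ccnb1* (upper-quartile -0.01, lowest without Hox-WT library 2 at -0.03) and *Cdkn2b* (-1.25 to 0.05). Between URE-AML and Hox-URE they were *Bax* (library size only 0.10, range -0.10 to 0.05), *Npm1* (-0.06 to 0.11) and *Ppm1d* (library size only 0.07).

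Between libraries of equal number, deviations from the line mean correlated at 0.01 to 0.271, all positive, and only some pairs were over 0.1. They were highest for Hox-URE against Hox-WT, at 0.271, 0.0995 and 0.174 for numbers 1, 2 and 3. Whether equal numbers mark a shared batch was not tested. With the replicate number as a block, Hox-URE versus Hox-WT gave 2802 higher and 2106 lower calls, against 2789 and 2084, and *Cdkn2a* was called higher there, at 0.67 (adjusted p = 0.012). The block changed no other call of a gene named here. Over all genes, at least 10 counts in every library called 1841 higher and 1359 lower in Hox-URE versus Hox-WT, 1891 and 1711 in URE-AML versus Hox-WT (3011 and 2637 as reported) and 1668 and 1885 in URE-AML versus Hox-URE (2662 and 2929). That filter drops by construction any gene silent in a line, so these counts are over fewer genes than those reported. Of genes with less RNA in Hox-URE than Hox-WT, glmTreat called 1335 and no fold threshold 3294. Depth limits *Eda2r*, *Trp63* and the low lines of *Plk2*, *Dram1* and *Btg2*.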

Other observations

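A list of 13 cell cycle genes, whose transcripts p53 and p21 are known to hold down indirectly, was read beside the targets. In Hox-URE versus Hox-WT 1 was called higher (7.69%, against 21.3% of all genes), *Ccnb1*, at 1.02 ± 0.09 (log2, SE), and 2 lower (15.4%, against 15.9%), *Aurka* at -0.73 ± 0.08 and *Bub1* at -0.65 ± 0.09. In URE-AML versus Hox-WT 3 were higher (23.1%, against 23.0%), among them *Mki67* at 0.90 ± 0.24 and *Top2a* at 0.85 ± 0.15, and edgeR and DESeq2 called 0 lower (against 20.2% of all genes by edgeR), while 6 of the 10 genes not called had an unadjusted edgeR p under 0.05 in either direction. *Bub1* was called lower with upper-quartile factors, at -0.59, and without URE-AML library 1, at -0.61. In URE-AML versus Hox-URE 7 were higher (53.8%, against 20.3% of all genes), led by *Top2a* at 1.09 ± 0.15 and *Aurka* at 1.05 ± 0.08, and 1, *Ccnb1*, was lower at -0.99 ± 0.09 (7.69%, against 22.4%). 

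The further targets had 50 RefSeq promoter windows, for 36 genes. A p53 full site with at most 3 mismatches was found in 8 of these windows, for 7 genes, against 1.38% of all windows. The site of *Aen* lies in 2 overlapping windows and is counted in both.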
